A study of Mus musculus with 36 samples.

Results

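Islets of Gαz-null (KO) mice fed a high-fat diet (HFD) were set against islets of KO mice fed a control diet (CD). The comparison used 8 of the 18 gene-level exon arrays of the series, 3 from KO HFD and 5 from KO CD islets, out of 36 samples of all kinds. The KO HFD arrays were those of islets 10, 17 and 18. Another KO HFD array, islet 11, was left out, because the study dropped 1 KO HFD array for anomalies. The study's methods do not name that array, and islet 11 was taken to be it. It is followed separately below. The KO CD arrays were those of islets 1, 2, 3, 12 and 13. Each array held the islets of 1 mouse. The number is that of the sample title, and the values of a group are given below in the order in which its islets are listed here.

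All KO mice were males of the C57BL/6N background that lacked a protein-coding exon of Gnaz in every tissue. KO HFD mice received the high-fat diet and KO CD mice the control diet of the same feeding study. The 4 WT HFD and 5 WT CD arrays came from wild-type males on the same pair of diets and were used for the spread between mice and for the test of whether the diet difference was another in KO than in WT islets. The labels give an age of 6 months and the collection protocol 37 to 40 weeks. The age at which feeding began and its length, as given in the study's methods for these mice, add up to about the age in the labels. Islets were picked by hand away from the acinar tissue that surrounds them, and the lowest RNA integrity number in the labels was 7.40. According to the methods, RNA of 1 further mouse in each HFD group was of too low quality to be hybridized. The deletion was not confined to the islet or to beta cells. Whole islets mix endocrine cell types, vessels, leukocytes and remaining acinar cells, and in such bulk samples fewer cells of a type and less RNA per cell cannot be told apart.

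The alpha subunit Gαz belongs to the inhibitory G protein family, which lowers the activity of adenylyl cyclase and with it the cAMP that amplifies insulin secretion. Peptides that act on receptors of this family, among them somatostatin of the delta cell and the Y-receptor ligands neuropeptide Y (Npy), peptide YY (Pyy) and pancreatic polypeptide (Ppy), restrain secretion inside the islet. High-fat feeding raises the demand for insulin, and beta cells meet it through translocation, folding and transport of proinsulin in the secretory pathway and through mitochondrial ATP production. The stathmin Stmn2 binds tubulin and destabilizes microtubules, along which secretory granules move. The kinase Sgk1, named for its induction by serum and glucocorticoids, acts on ion channels and transporters.

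The deposited levels are on the log2 scale, so that a difference of 1 is a 2-fold change. Differences are KO HFD minus KO CD and were tested with limma, with p-values adjusted after Benjamini-Hochberg over all 14860 genes with 1 symbol. As deposited, 215 genes (1.45%) were higher and 6632 (44.6%) lower in KO HFD than in KO CD islets. Most of these differences were small: 6480 of the called genes (94.6%) differed by less than 1.5-fold. Changes over 1.5-fold were 20 rises and 347 falls, of which 3 rises and 11 falls went past 2-fold. The arrays themselves differed. The median over all transcript clusters of an array was 7.94 to 7.98 in KO HFD and 8.03 to 8.12 in KO CD islets (two-sided p = 0.0357 by exact permutation, the smallest that 3 against 5 arrays allow), and the upper quartile was 9.37 to 9.41 and 9.54 to 9.73 (p = 0.0357 by the same test). The lower quartile was 6.53 to 6.55 and 6.53 to 6.58 (exact p = 1). The bright part of the KO HFD distributions was thus lower, and the dim part lay in the same range.

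Because of this shift each result was read on 3 scales: as deposited, with each array centred on its own median over all clusters, and with each array centred on the median of the genes tested. The median difference of all genes was −0.18, −0.06 and 0.07 on these scales. After array centring 899 genes (6.05%) were higher and 3156 (21.2%) lower. On all 3 scales 215 genes (1.45%) were higher and 1135 (7.64%) lower, and "on all 3 scales" below refers to these. Both centrings moved the differences upward and all 215 rises as deposited were kept, so the 3 scales are no check of a rise. The 1135 falls are those found after centring on the genes tested, a scale chosen after seeing the data. Centring on the olfactory receptor genes moved the differences down and called 75 genes higher and 7836 lower. Quantile normalization and cyclic loess, which also level the upper part of the distributions, gave 1246 higher and 1177 lower, and 1170 higher and 1152 lower. The direction of the majority therefore depended on the scaling.

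The shift was not even over genes of different level. In the dimmest decile of genes the median difference was 0.00 and 2.76% were lower. In deciles 6 to 10 the median lay between −0.22 and −0.29, and 63.0% to 72.1% were lower as deposited. Between WT HFD and WT CD islets the median was 0.01 to 0.02 in every decile. Counts of bright genes as deposited, such as those of metabolic and secretory pathways, stand against these shares rather than against 44.6%.

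**Figure D1:**
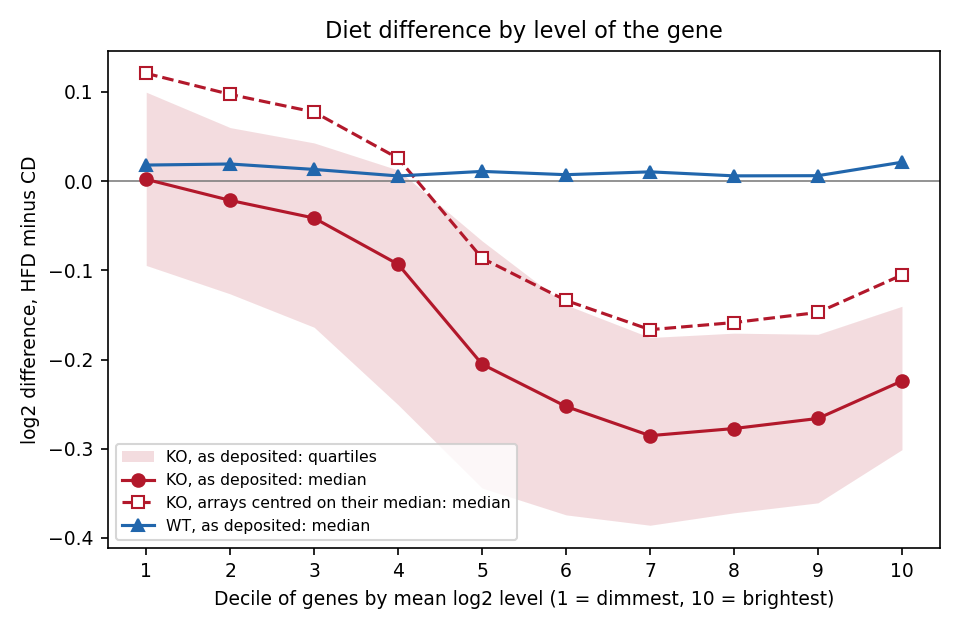
Median log2 difference, HFD minus CD, for deciles of the 14860 genes ordered by mean log2 level, for KO islets as deposited (filled circles, shaded band from the lower to the upper quartile), for KO islets after array centring (open squares) and for WT islets (triangles). The KO median falls from 0.00 in the dimmest decile to −0.29 in decile 7, while the WT median stays at 0.01 to 0.02.

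Among the 3 KO HFD arrays, islet 10 stood apart. The SD over genes of its difference from the other KO HFD arrays was 0.253, against 0.187 and 0.184 in islets 17 and 18 and 0.170 to 0.228 in the KO CD arrays. For islet 11 it was 0.405. Islet 10 read higher in acinar genes and lower in Cox6a2, Sfrp5 and Sst than islets 17 and 18, and results that rest on it are given without it as well. Without islet 10, 181 genes were higher and 5976 lower as deposited.

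The tissue label held in every array. The hormone genes of all 4 endocrine cell types were bright, with Ins2 (insulin 2) at 13.74 to 13.83 in KO HFD and 13.80 to 13.86 in KO CD islets, Gcg (glucagon) at 14.01 to 14.20 and 14.27 to 14.35, Sst (somatostatin) at 13.26 to 13.86 and 14.05 to 14.21, and Ppy at 14.00 to 14.24 and 14.22 to 14.39. Acinar enzyme genes were bright too, with a mean of 14 enzymes of 13.42 to 13.83 in KO HFD and 13.10 to 13.54 in KO CD islets. The targeted gene was read at the level of the whole gene, which is no check of the deleted exon. Gnaz read 10.09, 10.03 and 10.11 in KO HFD islets, against 10.20, 10.56, 10.30, 10.45 and 10.33 in KO CD islets, below all WT arrays, which lay at 11.02 to 11.26 in WT HFD and 11.04 to 11.15 in WT CD islets. Its difference between the KO groups of −0.29 (SE 0.07, adjusted p = 0.00432) was smaller after array centring (−0.17, adjusted p = 0.0616) and near 0 after centring on the genes tested (−0.04, adjusted p = 0.573).

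Npy, the peptide that inhibits insulin secretion through Y receptors, was lower in every KO HFD array than in every KO CD array. It read 8.69, 8.74 and 8.56 in KO HFD islets, against 9.30, 9.93, 10.07, 9.80 and 9.76 in KO CD islets, a difference of −1.11 (SE 0.16, adjusted p = 4.36e-04) as deposited and −0.99 (adjusted p = 0.00272) after array centring. The KO CD arrays spread more (SD 0.29) than the KO HFD arrays (SD 0.09). Stmn2 fell by a similar size and separated the groups less widely. Its levels were 7.13, 7.55 and 7.34 in KO HFD islets, against 7.77, 7.90, 9.04, 9.34 and 8.72 in KO CD islets, a difference of −1.21 (SE 0.29, adjusted p = 0.00355) and of −1.09 (adjusted p = 0.0139) after array centring. Islets 1 and 2 were the lowest of the KO CD arrays, but still above all KO HFD arrays. Sgk1 moved the other way, with 9.88, 9.28 and 9.16 in KO HFD islets, against 8.69, 8.91, 8.82, 8.54 and 8.76 in KO CD islets, and a difference of 0.70 (SE 0.14, adjusted p = 0.0012). Islet 10 was its highest array, and without it the difference was 0.48 (adjusted p = 0.00521). All 3 genes were called on all 3 scales and under each single-array omission.

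Set against WT islets, the diet difference of Npy and Sgk1 was larger in KO islets, and for Stmn2 the test of that difference did not pass. In WT HFD minus WT CD islets Npy was at −0.39 (adjusted p = 0.427), Stmn2 at −0.44 (adjusted p = 0.709) and Sgk1 at 0.04 (adjusted p = 0.963). The difference between the KO and WT diet effects was −0.71 for Npy (SE 0.22, adjusted p = 0.0218), −0.78 for Stmn2 (adjusted p = 0.143) and 0.66 for Sgk1 (adjusted p = 0.0161). After array centring the value for Npy was −0.62 (adjusted p = 0.0566).

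**Figure D2:**
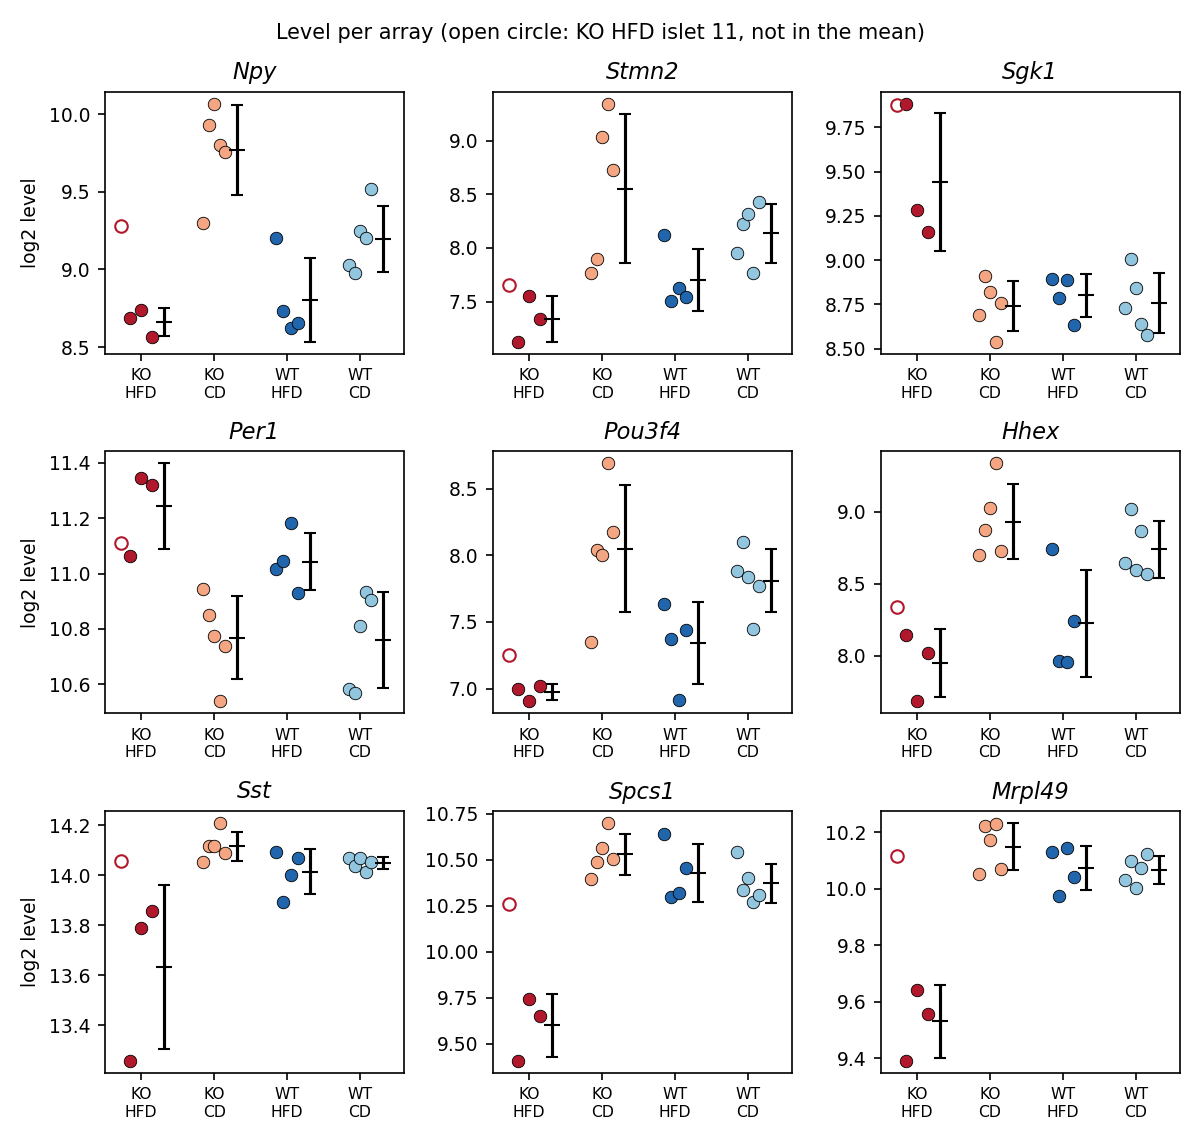
Level per array, on the log2 scale as deposited, of Npy, Stmn2, Sgk1, Per1, Pou3f4, Hhex, Sst, Spcs1 and Mrpl49 in KO HFD, KO CD, WT HFD and WT CD islets. Filled points are arrays, the bar beside them is the mean with the SD, and the open circle is KO HFD islet 11, which is not in the mean. In each of the 9 genes the 3 KO HFD arrays lie on 1 side of the 5 KO CD arrays.

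Other genes that glucocorticoids are known to induce rose with Sgk1. Of 20 such genes measured, 6 rose on all 3 scales and 14 did not pass as deposited, and none fell, against 1.45% of all genes higher. When any 1 of KO HFD islet 10, KO CD islets 3 and 13, WT HFD islet 7 and WT CD islet 4 was left out, 1 gene of the list was lower. The median of the list was 0.06 as deposited, 0.18 after array centring and 0.31 after centring on the genes tested, beside −0.18, −0.06 and 0.07 over all genes, and it was 0.00 when arrays were centred on the olfactory receptor genes. Besides Sgk1 the genes that rose were Per1, Klf15, Ddit4, Fkbp5 and Errfi1. Per1, a repressor of the circadian clock, read 11.06, 11.35 and 11.32 in KO HFD islets, against 10.94, 10.85, 10.77, 10.54 and 10.74 in KO CD islets (difference 0.47, SE 0.10, adjusted p = 0.00211). Klf15, a transcription factor of amino acid and glucose metabolism, read 9.17, 8.74 and 8.81 in KO HFD islets, against 8.40, 8.46, 8.49, 8.53 and 8.61 in KO CD islets (0.41, SE 0.10, adjusted p = 0.00506). In both genes the groups were apart, but only narrowly.

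The other 3 were less regular. Ddit4, an inhibitor of the growth kinase complex mTORC1, read 11.28, 11.63 and 11.86 in KO HFD islets, against 11.37, 11.10, 11.07, 10.31 and 10.47 in KO CD islets (0.72, SE 0.22, adjusted p = 0.0133), and KO CD islet 1 lay above KO HFD islet 10. Its diet difference was 0.72 in WT islets as well (adjusted p = 0.213). Fkbp5, a co-chaperone of the glucocorticoid receptor, was 10.25, 10.71 and 10.03 in KO HFD islets, against 9.73, 9.87, 10.03, 9.73 and 10.12 in KO CD islets (0.43, SE 0.14, adjusted p = 0.0214), and the call ended without KO HFD islet 17 (0.24, adjusted p = 0.180) or KO CD islet 12 (0.39, adjusted p = 0.0509). Errfi1, a feedback inhibitor of the epidermal growth factor receptor, was 13.20, 12.92 and 13.10 in KO HFD islets, against 12.82, 12.87, 12.64, 11.44 and 11.92 in KO CD islets (0.73, SE 0.26, adjusted p = 0.0303). The KO CD islets 12 and 13 were far below the other 3, and the call of Errfi1 ended without KO HFD islet 10 or 18 or KO CD islet 12 or 13, with values of 0.51 to 0.72 and adjusted p of 0.0586 to 0.0925. The canonical target Tsc22d3, which encodes the leucine zipper protein Gilz, was at −0.05 (adjusted p = 0.796), and the receptor gene itself, Nr3c1, at −0.19 (adjusted p = 0.0552). With the mean of the acinar enzymes as a covariate, 2 of the 20 genes were still called higher, Sgk1 (0.49, adjusted p = 0.013) and Per1 (0.53, adjusted p = 0.00608). For Klf15 and Fkbp5 the diet effect in KO islets exceeded that in WT islets by 0.65 (adjusted p = 0.00551) and 0.63 (adjusted p = 0.0234), and for Per1 by 0.19 (adjusted p = 0.324).

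The sequences before the starts of Sgk1 and Per1 are shown because these 2 genes led the list and held a motif that was searched. The windows are those of RefSeq on GRCm38.p6, 250 bases before to 50 after an annotated start, and both strands were searched. The glucocorticoid response element was written as the half-sites AGAACA and TGTTCT with any 3 bases between them, which reads the same on both strands. It was found in 3 of 32851 windows (0.00913%) and in 3 of 27025 genes with a window (0.0111%). Of the 17 list members with a window it was in 1, Sgk1, in 1 of its 6 windows, starting at position −189 from that start. The window lies at chr10:21993640-21993939 on the plus strand, with the element in capitals.
Sgk1: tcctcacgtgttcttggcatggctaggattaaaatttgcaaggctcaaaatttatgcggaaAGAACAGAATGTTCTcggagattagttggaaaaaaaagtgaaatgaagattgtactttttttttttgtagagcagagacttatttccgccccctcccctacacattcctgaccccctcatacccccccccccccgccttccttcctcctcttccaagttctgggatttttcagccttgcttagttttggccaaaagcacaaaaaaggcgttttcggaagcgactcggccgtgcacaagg
The clock element or E-box, CACGTG, was in 2349 windows (7.15%) and in 2187 genes with a window (8.09%). It was in 6 of the 17 list members, namely Sgk1, Fkbp5, Per1, Klf15, Dusp1 and Bcl6. In Per1 it began at position −166 in 1 of 2 windows, at chr11:69098699-69098998 on the plus strand, with the E-box in capitals.
Per1: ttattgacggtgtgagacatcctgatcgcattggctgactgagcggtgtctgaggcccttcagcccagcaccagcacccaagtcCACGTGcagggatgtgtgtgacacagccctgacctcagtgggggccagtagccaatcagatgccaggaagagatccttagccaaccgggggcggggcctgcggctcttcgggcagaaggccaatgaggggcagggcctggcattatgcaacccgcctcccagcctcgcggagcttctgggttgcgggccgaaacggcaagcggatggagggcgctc
Each match is a description of these letters, and binding was not measured.

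Among the largest rises of all genes only Sgk1 and Errfi1 belonged to that list. The 12 genes with the largest differences among those called in the same direction as deposited and after array centring, and whose arrays did not overlap, are named here. Adam4, of the ADAM metalloprotease family, read 7.22, 7.58 and 7.53 in KO HFD islets, against 6.71, 6.05, 6.23, 6.56 and 6.56 in KO CD islets (1.02, SE 0.23, adjusted p = 0.00258). Sinhcaf, a subunit of the Sin3 histone deacetylase complex, read 8.82, 8.86 and 9.08 in KO HFD islets, against 8.35, 7.61, 7.94, 7.90 and 7.93 in KO CD islets (0.98, SE 0.21, adjusted p = 0.00204). The long noncoding RNA Lncpint read 10.95, 11.28 and 11.37 in KO HFD islets, against 10.70, 10.18, 10.10, 10.00 and 10.18 in KO CD islets (0.97, SE 0.17, adjusted p = 7.24e-04). In each of these 3 genes islet 1 was the highest KO CD array, and their diet effect exceeded that in WT islets by 1.05, 1.32 and 1.17 (adjusted p = 0.0203, 0.00561 and 0.00406). The kinase gene Pim3, at 11.06, 11.16 and 10.92 in KO HFD islets, against 10.64, 10.43, 10.47, 10.37 and 10.50 in KO CD islets, had the smallest adjusted p of the 12 (0.57, SE 0.09, adjusted p = 4.97e-04).

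Of the remaining rises, Trib1 (a pseudokinase, 0.64, adjusted p = 0.00257), Ankrd34b (an ankyrin repeat protein, 0.62, adjusted p = 0.00608) and Mrgpra4 (a Mas-related receptor, 0.75, adjusted p = 0.00934) kept their calls without any single array. The olfactory receptor gene Olfr1010, at 5.72, 6.00 and 5.77 in KO HFD islets, against 5.11, 5.43, 5.52, 5.17 and 5.07 in KO CD islets, is dim (0.57, adjusted p = 0.0267). Aqp12 and Hpx rested on islet 10. Aqp12, an aquaporin of acinar cells, read 11.12, 9.67 and 9.74 in KO HFD islets, against 9.28, 8.88, 9.31, 9.09 and 9.66 in KO CD islets, and its difference of 0.93 (adjusted p = 0.019) was 0.46 without islet 10 (adjusted p = 0.167). Hpx, the heme-binding plasma protein hemopexin, read 9.03, 6.97 and 6.89 in KO HFD islets, against 6.66, 6.85, 6.87, 6.69 and 6.78 in KO CD islets, and its difference of 0.86 (adjusted p = 0.0353) was 0.16 without islet 10 (adjusted p = 0.0975).

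Most genes of the non-beta endocrine cells were lower as deposited. Of 14 genes of alpha, delta and pancreatic polypeptide (PP) cells, 12 were lower and 2 did not pass as deposited, 9 were lower after array centring and 7 on all 3 scales. The median of the list was −0.46, −0.34 and −0.21 on these scales, and the mean of its levels was 10.61 to 10.80 in KO HFD and 11.01 to 11.36 in KO CD islets. In decile 10, in which the median level of the list (11.05) lies, 65.9% of all genes were lower as deposited. On all 3 scales 7.64% of all genes were lower. Without islet 10, 9 of the 14 were lower as deposited. Pou3f4, a transcription factor of alpha cells, read 7.00, 6.90 and 7.02 in KO HFD islets, against 7.35, 8.04, 8.00, 8.69 and 8.17 in KO CD islets (−1.07, SE 0.22, adjusted p = 0.00141). Hhex, the transcription factor that delta cells need, read 8.14, 7.68 and 8.02 in KO HFD islets, against 8.70, 8.87, 9.02, 9.34 and 8.73 in KO CD islets (−0.98, SE 0.18, adjusted p = 8.91e-04). Rbp4, a retinol-binding protein enriched in delta cells, read 10.91, 11.28 and 11.31 in KO HFD islets, against 11.81, 11.97, 11.84, 12.26 and 12.01 in KO CD islets (−0.81, SE 0.13, adjusted p = 5.03e-04). In all 3 genes the groups were apart. Ghsr, the ghrelin receptor of delta cells (−0.48, adjusted p = 7.02e-04), and the alpha cell factors Irx1 (−0.55, adjusted p = 8.74e-04) and Irx2 (−0.48, adjusted p = 0.00103) fell on all 3 scales as well, but the calls of Ghsr and Irx2 ended with quantile normalization (−0.22, adjusted p = 0.0666, and −0.21, adjusted p = 0.0785).

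The hormones of these cells were lower by smaller values. Sst read 13.26, 13.79 and 13.86 in KO HFD islets, against 14.05, 14.11, 14.12, 14.21 and 14.09 in KO CD islets, a difference of −0.48 (SE 0.10, adjusted p = 0.00138). Islet 10 was the lowest, and without it the difference was −0.29 (adjusted p = 0.00283). After centring on the genes tested it was −0.23 (adjusted p = 0.098). Gcg was lower by −0.19 (adjusted p = 0.00643) and Ppy by −0.17 (adjusted p = 0.0268) as deposited, and neither passed after array centring (−0.07, adjusted p = 0.315, and −0.05, adjusted p = 0.530) or without islet 10 (−0.12, adjusted p = 0.0528, and −0.10, adjusted p = 0.199). The window of Sst, shown because Sst is the hormone of the delta cell and was lower, holds the cAMP response element TGACGTCA, in capitals, beginning at position −48, at chr16:23890795-23891094 on the minus strand of GRCm38.p6 (RefSeq).
Sst: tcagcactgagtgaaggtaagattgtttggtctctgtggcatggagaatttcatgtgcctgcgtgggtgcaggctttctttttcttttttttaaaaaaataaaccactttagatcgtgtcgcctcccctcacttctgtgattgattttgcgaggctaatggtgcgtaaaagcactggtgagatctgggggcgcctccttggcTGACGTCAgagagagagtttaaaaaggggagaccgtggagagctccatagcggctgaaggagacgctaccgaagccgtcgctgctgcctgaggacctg
The element reads the same on both strands and was in 588 of 32851 windows (1.79%) and in 549 of 27025 genes with a window (2.03%). It was in 4 of the 16 hormone and granule genes with a window, namely Sst, Chgb, Scg2 and Pcsk1.

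In the Npy family the ligands and the enzyme that trims them were lower as deposited, and the receptors were not called. The ligand Ppy did not pass after array centring, as given above. Of 12 genes measured 7 were lower as deposited, 4 after array centring and 2 on all 3 scales, Npy and Dpp4. The median of the list was −0.17, −0.05 and 0.08, beside −0.18, −0.06 and 0.07 over all genes. The count as deposited was not above that of genes of like level. In decile 8, in which the median level of the list (9.69) lies, 72.1% of all genes were lower. Dpp4, the peptidase that cleaves Npy, Pyy and glucagon-like peptide 1, read 10.24, 10.36 and 10.31 in KO HFD islets, against 10.55, 10.84, 10.65, 10.94 and 10.69 in KO CD islets (−0.43, SE 0.09, adjusted p = 0.00188), and its call ended with quantile normalization (−0.19, adjusted p = 0.0694). Pyy was lower by −0.37 (adjusted p = 0.00325) with KO CD islet 1 below KO HFD islet 18. None of the 5 Y receptor genes Npy1r, Npy2r, Npy4r, Npy5r and Npy6r passed, with differences between −0.14 and 0.15 and adjusted p from 0.343 to 0.870. Gnai3, an inhibitory G protein alpha subunit, was lower by −0.29 (adjusted p = 0.00279), but was at −0.04 after centring on the genes tested (adjusted p = 0.569).

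Insulin and its partner peptide were not called, and of the beta cell identity genes Mnx1, Pdx1, Kcnj11, Insm1 and Foxa2 were lower as deposited. Ins2 differed by −0.05 (SE 0.04, adjusted p = 0.379) and Iapp, which is secreted with insulin, by −0.08 (adjusted p = 0.197). Both turned to called rises, 0.20 (adjusted p = 0.00987) and 0.17 (adjusted p = 0.031), after centring on the genes tested, and Ins1 was not analysed here. The incretin receptor genes Glp1r (−0.07, adjusted p = 0.337) and Gipr (−0.16, adjusted p = 0.209) did not pass as deposited. Of 24 beta cell identity genes 11 were lower and 13 did not pass as deposited, 7 were lower and 1 higher after array centring, and 1 was lower on all 3 scales. The median of this list was −0.27, −0.15 and −0.02. These counts were not above those of other genes, since 65.9% of all genes of decile 10, in which the median level of the list (11.32) lies, were lower as deposited and 7.64% of all genes on all 3 scales. The 1 gene was Mnx1, a transcription factor that maintains beta cell fate, at 8.28, 8.15 and 8.10 in KO HFD islets, against 8.55, 9.11, 8.65, 8.92 and 8.6 in KO CD islets (−0.59, SE 0.14, adjusted p = 0.00312).

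Pdx1, the master regulator of the insulin gene, read 11.47, 11.08 and 11.33 in KO HFD islets, against 11.83, 12.11, 11.84, 11.91 and 11.54 in KO CD islets (−0.55, SE 0.12, adjusted p = 0.00203), and was at −0.30 after centring on the genes tested (adjusted p = 0.0511). Kcnj11, the pore of the potassium channel (−0.45, adjusted p = 0.00127), Insm1 (−0.45, adjusted p = 0.00137) and Foxa2 (−0.36, adjusted p = 0.00115), both transcription factors of endocrine cells, kept the call after array centring and lost it after centring on the genes tested (adjusted p = 0.0522, 0.0768 and 0.161). For Pdx1, Kcnj11, Insm1 and Foxa2 the diet effect was lower in KO than in WT islets by −0.52, −0.57, −0.41 and −0.26 (adjusted p = 0.025, 0.00507, 0.0194 and 0.0452).

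Besides Stmn2, genes of the neuronal cytoskeleton that endocrine cells share with neurons were lower in part. Of 31 measured, 16 were lower and 15 did not pass as deposited, 11 were lower after array centring and 5 on all 3 scales, with a list median of −0.27, −0.15 and −0.02. The count as deposited was not above that of genes of like level, 63.0% in decile 6, in which the median level of the list (8.92) lies. In 15 of the 16 the KO HFD arrays lay below every KO CD array, as they did in 5640 of all 6632 genes lower as deposited. Nefm, the medium neurofilament, read 8.28, 8.23 and 8.28 in KO HFD islets, against 8.74, 9.01, 8.89, 8.88 and 9.05 in KO CD islets (−0.65, SE 0.09, adjusted p = 4.36e-04). Nrsn1, a vesicle-associated neuronal protein, was lower by −0.71 (adjusted p = 0.00148), Uchl1, a ubiquitin hydrolase of neuroendocrine cells, by −0.61 (adjusted p = 0.00157), Stmn3, a second stathmin, by −0.51 (adjusted p = 0.00138) and Dcx, the microtubule protein doublecortin, by −0.50 (adjusted p = 0.00111). Doublecortin did not pass after centring on the genes tested (−0.25, adjusted p = 0.0698). The diet effect of Stmn3, Nefm, Nrsn1, Uchl1 and Dcx was lower in KO than in WT islets by −0.57 to −1.03 (adjusted p = 0.00282 to 0.0067).

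Genes of granule exocytosis were lower in part. Of 25 measured, 16 were lower as deposited, 10 lower and 1 higher after array centring, and 3 lower on all 3 scales, with a median of −0.23, −0.12 and 0.02. In decile 10, in which the median level of the list (10.90) lies, 65.9% of all genes were lower as deposited. Napb, which with the ATPase Nsf takes apart the fusion complexes of vesicles, read 8.45, 8.66 and 8.70 in KO HFD islets, against 9.27, 9.63, 9.59, 9.72 and 9.42 in KO CD islets (−0.92, SE 0.11, adjusted p = 3.24e-04). Its diet effect was −1.21 lower in KO than in WT islets (adjusted p = 0.00254). Exoc6, of the exocyst that tethers vesicles, read 9.05, 9.06 and 9.05 in KO HFD islets, against 9.48, 9.71, 9.62, 9.89 and 9.64 in KO CD islets (−0.62, SE 0.08, adjusted p = 4.05e-04). Syt9, a calcium sensor of insulin granules, was lower by −0.43 (adjusted p = 8.56e-04). The islet hormone and granule cargo genes as a list had 10 of 18 lower as deposited, 3 after array centring and 0 on all 3 scales, and 4 as deposited without KO HFD islet 10.

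Of the 12 largest falls, Cox6a2 and Sfrp5 rested in size on islet 10. Cox6a2, a muscle-type subunit of cytochrome c oxidase, read 9.67, 11.81 and 11.94 in KO HFD islets, against 12.40, 12.60, 12.30, 12.66 and 12.21 in KO CD islets. Its difference of −1.29 (SE 0.35, adjusted p = 0.00656) was −0.56 without islet 10 (adjusted p = 0.0066). Sfrp5, a secreted Wnt antagonist, read 9.22, 10.80 and 10.97 in KO HFD islets, against 11.36, 11.40, 11.29, 11.94 and 11.25 in KO CD islets, with −1.11 (SE 0.28, adjusted p = 0.00453) and −0.56 without islet 10 (adjusted p = 0.012). The other 10 of the 12 kept their calls without it, at −0.79 to −1.12. Spock3, an extracellular proteoglycan, read 7.13, 7.17 and 7.13 in KO HFD islets, against 7.82, 8.20, 8.10, 8.6 and 8.23 in KO CD islets (−1.04, SE 0.14, adjusted p = 4.36e-04). Swi5, a factor of recombinational DNA repair, read 9.05, 8.55 and 8.79 in KO HFD islets, against 9.57, 9.95, 9.65, 9.97 and 9.82 in KO CD islets (−0.99, SE 0.15, adjusted p = 4.97e-04).

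Ndst4, which sulfates heparan chains, fell by −1.13 (adjusted p = 0.00102), the neuronal membrane glycoprotein Gpm6a by −1.08 (adjusted p = 8.55e-04), AW551984 by −1.02 (adjusted p = 5.25e-04), Vwde, a secreted protein with von Willebrand factor and EGF-like domains, by −1.0 (adjusted p = 0.00148) and Klhl13, an adaptor of a ubiquitin ligase, by −0.99 (adjusted p = 5.48e-04). With Npy, Stmn2 and Pou3f4 these make up the 12. The diet effect differed between KO and WT islets for Spock3 (−0.98, adjusted p = 0.00391), Swi5 (−0.96, adjusted p = 0.00567) and Sfrp5 (−1.16, adjusted p = 0.0295), and did not pass for Cox6a2 (−1.15, adjusted p = 0.0701), Gpm6a (−0.64, adjusted p = 0.0731) and Pou3f4 (−0.61, adjusted p = 0.125).

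**Figure D3:**
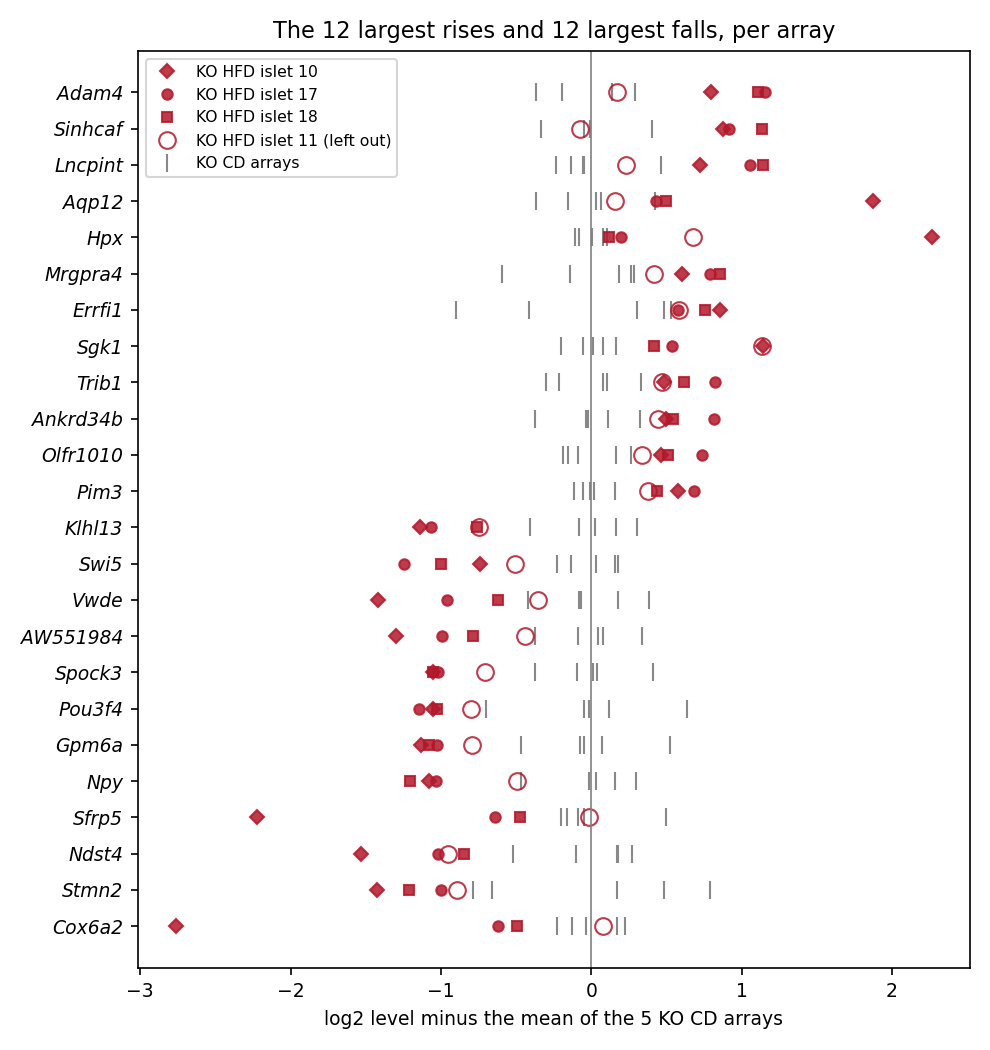
Level of each array minus the mean of the 5 KO CD arrays, on the log2 scale as deposited, for the 12 largest rises (top) and the 12 largest falls (bottom). Red symbols are KO HFD islets 10, 17 and 18, the open circle is islet 11, which was left out of the fit, and grey ticks are the KO CD arrays. Islet 10 lies far from islets 17 and 18 in Hpx, Aqp12, Cox6a2 and Sfrp5. Among the genes in which islet 11 lies beside the KO CD arrays are Adam4, Aqp12, Sinhcaf, Cox6a2 and Sfrp5.

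The genes that move proinsulin into the endoplasmic reticulum (ER) and fold it were lower nearly throughout, as deposited, whereas 63.0% to 72.1% of all genes of deciles 6 to 10 were. Of 20 genes of the signal peptidase and translocon 19 were lower and 1 did not pass as deposited, 11 were lower after array centring, 5 on all 3 scales and 6 with quantile normalization. The median was −0.36, −0.24 and −0.11. Spcs1, part of the enzyme that cuts the leader off preproinsulin, read 9.41, 9.74 and 9.65 in KO HFD islets, against 10.39, 10.49, 10.56, 10.70 and 10.50 in KO CD islets (−0.93, SE 0.09, adjusted p = 1.69e-04). Its partners Spcs2 (−0.52, adjusted p = 4.66e-04) and Spcs3 (−0.41, adjusted p = 4.36e-04) and Ssr3, of the translocon-associated complex (−0.46, adjusted p = 4.36e-04), were lower on all 3 scales too. For these 4 genes the diet effect was lower in KO than in WT islets by −0.51 to −0.99 (adjusted p = 0.00254 to 0.0039).

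Of 24 genes of ER folding and disulfide formation 21 were lower as deposited, 13 after array centring and 3 on all 3 scales (median −0.30, −0.18 and −0.05). Fkbp2, an ER prolyl isomerase, read 10.52, 10.55 and 10.72 in KO HFD islets, against 11.07, 11.18, 11.26, 11.51 and 11.09 in KO CD islets (−0.62, SE 0.09, adjusted p = 4.36e-04). Pdia4, a disulfide isomerase, was lower by −0.45 (adjusted p = 4.36e-04). Calr, the chaperone calreticulin, read 12.55, 12.68 and 12.66 in KO HFD islets, against 12.92, 12.97, 13.04, 13.11 and 12.96 in KO CD islets (−0.37, SE 0.05, adjusted p = 4.36e-04), and was at −0.12 after centring on the genes tested (adjusted p = 0.109). The ER stress element was searched in the same windows. It was written as CCAAT and CCACG with any 9 bases between them and searched on both strands. The element was in 39 of 32851 windows (0.119%) and in 37 of 27025 genes with a window (0.137%). It was in 7 of the 21 folding genes with a window, namely Hspa5, Hsp90b1, Calr, Canx, Pdia6, Ero1b and Creld2. It is shown in capitals for Calr, on the reverse strand and beginning at position −162, at chr8:84846882-84847181 on the minus strand of GRCm38.p6 (RefSeq).
Calr: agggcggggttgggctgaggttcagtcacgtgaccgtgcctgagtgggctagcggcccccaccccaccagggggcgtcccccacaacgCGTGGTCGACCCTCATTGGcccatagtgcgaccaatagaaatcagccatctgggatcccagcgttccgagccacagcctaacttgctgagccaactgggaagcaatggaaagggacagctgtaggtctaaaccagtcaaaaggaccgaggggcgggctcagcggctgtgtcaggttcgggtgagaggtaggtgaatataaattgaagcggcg
Of 21 genes of the unfolded protein and integrated stress responses 9 were lower and 1 higher as deposited and 2 were lower and 1 higher on all 3 scales, and the median was −0.21, −0.09 and 0.04. The 1 higher gene lost its call without KO HFD islet 17. Atf4, the transcription factor of the integrated stress response, was lower by −0.49 (adjusted p = 6.14e-04) and Derl2, of ER-associated degradation, by −0.66 (adjusted p = 0.000718). Herpud1, another component of ER-associated degradation, was higher, at 12.43, 12.58 and 12.45 in KO HFD islets, against 12.26, 12.14, 12.13, 12.23 and 12.34 in KO CD islets (0.27, SE 0.07, adjusted p = 0.00823).

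Of 26 N-glycan synthesis genes 23 were lower as deposited and 7 on all 3 scales, among them Alg5, which makes the glucose donor (−0.54, adjusted p = 4.36e-04), and Ddost, of the oligosaccharyltransferase (−0.43, adjusted p = 4.05e-04). Of 27 genes of ER-Golgi transport 25 were lower as deposited and 2 on all 3 scales, Tmed3, a cargo receptor (−0.59, adjusted p = 4.36e-04), and Unc50, a Golgi membrane protein (−0.48, adjusted p = 4.36e-04). The medians were −0.34, −0.22 and −0.09 for glycan synthesis and −0.30, −0.18 and −0.05 for transport. Of 26 proteasome genes 25 were lower as deposited and 9 on all 3 scales, with Psmd7, of the regulatory particle, at 10.15, 10.06 and 10.01 in KO HFD islets, against 10.45, 10.74, 10.58, 10.64 and 10.55 in KO CD islets (−0.52, SE 0.07, adjusted p = 4.36e-04). Of 28 lysosome and autophagy genes 22 were lower as deposited and 1 on all 3 scales. The counts on all 3 scales for transport and the lysosome were not above the 7.64% of all genes. The list medians were −0.35, −0.23 and −0.10 for the proteasome and −0.25, −0.13 and 0.00 for the lysosome.

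Mitochondrial genes were lower in both lists as deposited, and fewer of them on all 3 scales. The median level of the mitochondrial ribosome list (9.09) lies in decile 7 and that of the respiratory chain list (10.51) in decile 9. In these deciles 71.8% and 71.7% of all genes were lower as deposited. Of 29 mitochondrial ribosome genes 27 were lower as deposited, 22 after array centring, 10 on all 3 scales and 9 with quantile normalization (median −0.39, −0.27 and −0.14). Of 27 respiratory chain and ATP synthase genes 24, 10, 2 and 2 were lower in that order (median −0.27, −0.15 and −0.02), and 2 of 27 is a share near the 7.64% of all genes lower on all 3 scales. Mrpl49 read 9.39, 9.64 and 9.56 in KO HFD islets, against 10.05, 10.22, 10.17, 10.23 and 10.07 in KO CD islets (−0.62, SE 0.06, adjusted p = 1.69e-04). Other subunits of the mitochondrial ribosome, Mrpl43 (−0.51) and Mrps10 (−0.53), had an adjusted p of 4.36e-04 each. Of the respiratory chain, the complex I subunit Ndufa1 read 6.58, 6.30 and 6.33 in KO HFD islets, against 6.77, 7.43, 6.86, 7.69 and 7.54 in KO CD islets (−0.85, SE 0.18, adjusted p = 0.00167), and Ndufb10 was lower by −0.44 (adjusted p = 4.55e-04). The KO CD arrays of Ndufa1 fell into 2 levels, with islets 1 and 3 near 6.8.

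Genes that make and splice RNA were lower as well, as were most genes of like level. The median level of the polymerase list (8.99) lies in decile 6 and that of the spliceosome list (10.25) in decile 9. In these deciles 63.0% and 71.7% of all genes were lower as deposited, and the spliceosome count was near that share. On all 3 scales 7.64% of all genes were lower. Of 21 RNA polymerase subunit genes 17 were lower as deposited and 5 on all 3 scales (median −0.38, −0.27 and −0.13), among them Polr2g of polymerase II (−0.54, adjusted p = 6.15e-04) and Polr3b of polymerase III (−0.44, adjusted p = 4.36e-04). Of 22 spliceosome genes 17 and 5 were lower (median −0.31, −0.19 and −0.06), among them Cwc15 (−0.61, adjusted p = 4.36e-04) and Snrpb2 (−0.53, adjusted p = 4.99e-04). Of the 9 cytosolic ribosome genes with a cluster of 1 symbol none was called as deposited by limma, and their median was −0.07, 0.05 and 0.18.

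**Figure D4:**
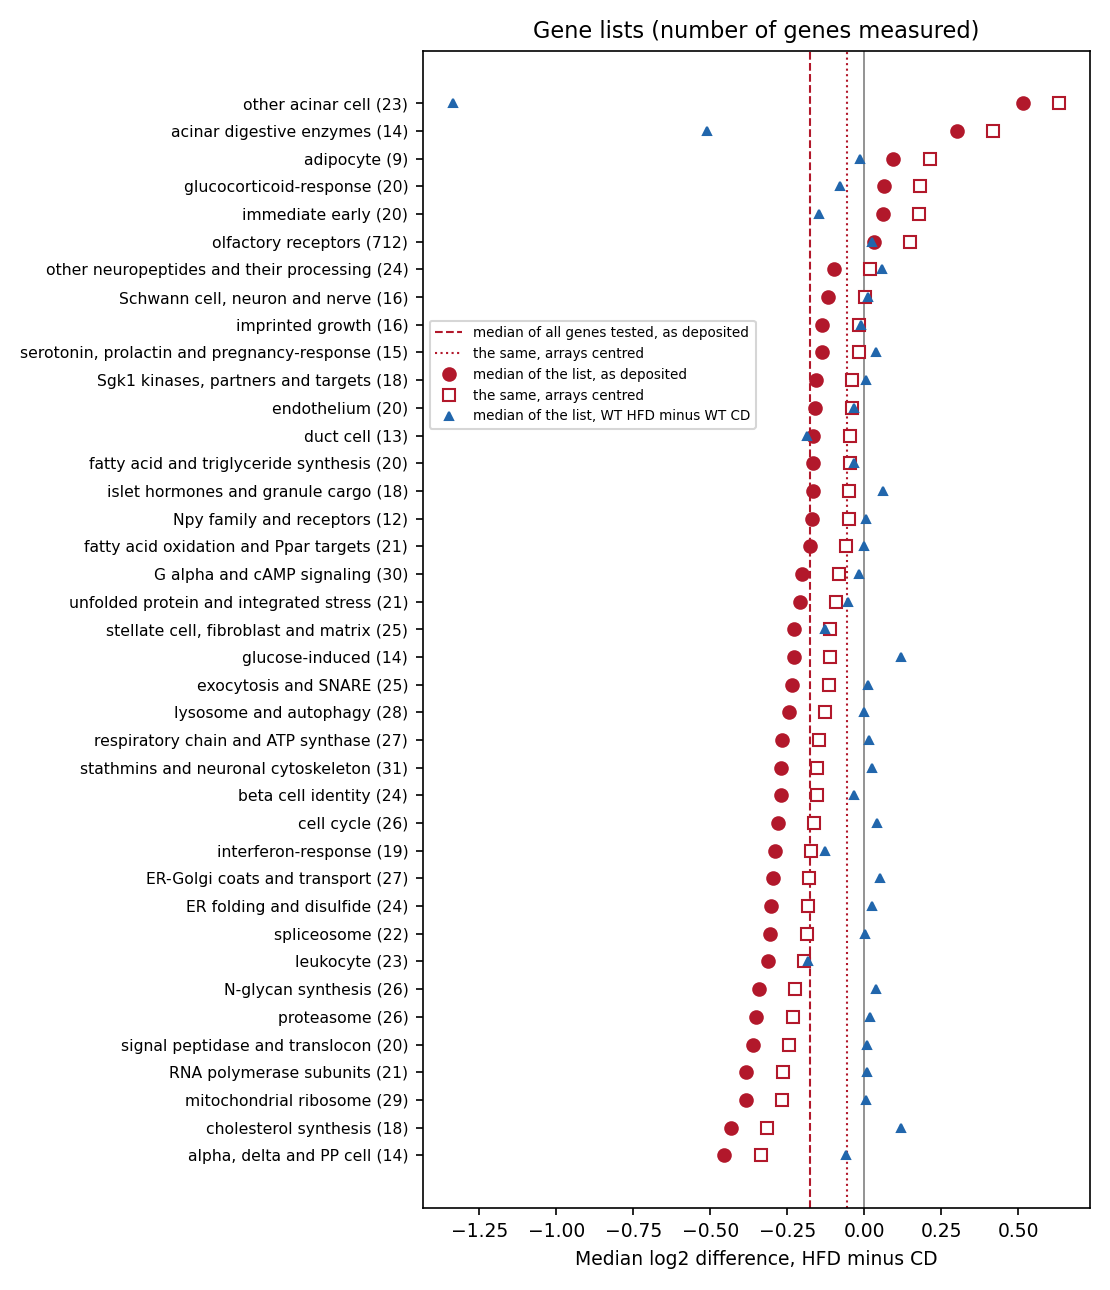
Median log2 difference, HFD minus CD, of each gene list, with the number of genes measured in brackets. Filled circles are KO islets as deposited, open squares KO islets after array centring and triangles WT islets, and the dashed and dotted lines are the medians of all genes tested (−0.18 as deposited, −0.06 after array centring). Acinar, adipocyte and glucocorticoid-response genes lie at the top, and cholesterol synthesis and alpha, delta and PP cell genes at the bottom.

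Cholesterol synthesis had the second lowest median of the lists. Of 18 genes 14 were lower as deposited, 9 after array centring and 3 on all 3 scales (median −0.43, −0.32 and −0.18), against 10 lower without islet 10. The median levels of this list (9.50) and of fatty acid and triglyceride synthesis (9.96) lie in decile 8. There 72.1% of all genes were lower as deposited. Cyp51, which demethylates lanosterol, read 7.88, 8.42 and 8.58 in KO HFD islets, against 8.79, 8.97, 9.01, 9.29 and 9.02 in KO CD islets (−0.72, SE 0.14, adjusted p = 0.00116), and Sqle, the squalene epoxidase, was lower by −0.59 (adjusted p = 0.00145). In fatty acid and triglyceride synthesis 8 of 20 genes were lower as deposited and 3 on all 3 scales, with a median of −0.17, −0.05 and 0.08. The desaturase Scd2 read 10.68, 10.89 and 11.18 in KO HFD islets, against 11.55, 11.51, 11.94, 11.97 and 11.64 in KO CD islets (−0.80, SE 0.14, adjusted p = 7.77e-04), and the desaturase Fads1 was lower by −0.44 (adjusted p = 5.24e-04). The diet effect of Cyp51, Sqle, Scd2 and Fads1 was lower in KO than in WT islets by −0.91, −0.66, −0.77 and −0.38 (adjusted p = 0.00498 to 0.00976).

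Of 21 fatty acid oxidation and Ppar target genes 9 were lower and 1 was higher as deposited, and 2 were lower and 1 higher on all 3 scales. The median level of the list (9.39) lies in decile 7, where 71.8% of all genes were lower as deposited. The count lower as deposited was below that share, and the count on all 3 scales was near the 7.64% of all genes. As deposited 3 genes of the list were lower without KO HFD islet 17, 3 without 18 and 5 without KO CD islet 2. Vnn1, a pantetheinase, was lower by −0.68 (adjusted p = 0.00184), though islet 11 read 8.15, above all KO CD arrays, and with that array in the fit the call ended (−0.38, adjusted p = 0.171). The lipid droplet protein gene Plin5 was higher by 0.16 (adjusted p = 0.0445) and Plin4 of the adipocyte list by 0.25 (adjusted p = 0.0292). For both genes the call ended when any 1 of KO HFD islets 10 and 17 and KO CD islets 2 and 12 was left out, and for Plin5 also without 1 of 4 WT arrays. Lpl, the lipoprotein lipase, was lower at 10.40, 10.10 and 10.26 in KO HFD islets, against 10.66, 10.90, 10.94, 11.15 and 10.81 in KO CD islets (−0.64, SE 0.12, adjusted p = 0.00101).

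Signaling and growth genes were lower in part as deposited, as were genes of like level. The median level of the cAMP signaling list (10.02) lies in decile 8 and that of the cell cycle list (8.08) in decile 5. In these deciles 72.1% and 48.9% of all genes were lower as deposited. On all 3 scales 7.64% of all genes were lower. The cAMP signaling counts were below these shares, and the cell cycle count as deposited was near its share. Of 30 genes of G protein alpha subunits and cAMP signaling 16 were lower as deposited, 4 lower and 1 higher after array centring and 0 on all 3 scales, and the median was −0.20, −0.08 and 0.05. Prkar1a, the regulatory subunit of protein kinase A (−0.32, adjusted p = 7.99e-04), and the adenylyl cyclase Adcy3 (−0.35, adjusted p = 0.0014) did not pass after centring on the genes tested (−0.07, adjusted p = 0.265, and −0.10, adjusted p = 0.142). Ptger3, the prostaglandin E2 receptor that couples to inhibitory G proteins, read 9.44, 7.78 and 7.99 in KO HFD islets, against 8.01, 8.08, 7.91, 8.34 and 8.65 in KO CD islets (0.21, adjusted p = 0.604), and it was high in islet 10 alone. Sgk3, a kinase related to Sgk1, was lower by −0.45 (adjusted p = 8.33e-04) on all 3 scales. Of 26 cell cycle genes 13 were lower as deposited and 3 on all 3 scales (median −0.28, −0.16 and −0.03). Ccne2, which encodes cyclin E2, read 7.29, 7.40 and 7.37 in KO HFD islets, against 7.98, 8.42, 8.16, 8.43 and 8.03 in KO CD islets (−0.85, SE 0.13, adjusted p = 4.99e-04), whereas the proliferation marker Mki67 was at −0.01 (adjusted p = 0.981).

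Genes of acinar cells were higher, and this rested on islet 10. Of 14 digestive enzyme genes 7 were higher and of 23 other acinar genes 6 were higher as deposited, all 13 on all 3 scales, with medians of 0.30 and 0.51 as deposited, 0.42 and 0.63 after array centring and 0.55 and 0.76 after centring on the genes tested. Without islet 10 both counts were 0 (limma), and both were 0 with the acinar enzyme mean as a covariate. The count of enzymes was 0 as well without KO CD islet 2 or 12, 3 without KO CD islet 1, 4 without KO HFD islet 18 and 11 without KO CD islet 13 or WT HFD islet 16. The count of other acinar genes was 3 without KO CD islet 2 and 13 without 13. Centring on the olfactory receptor genes left 0 enzymes and 4 other acinar genes. The mean level of the other acinar genes was 12.04 in islet 10 and 10.55 to 10.59 in islets 17 and 18, against 10.28 to 11.21 in KO CD islets, where islet 13 was the highest. Over the 8 arrays neither mean differed by an exact permutation test (enzymes 0.31, two-sided p = 0.107, and other acinar genes 0.52, two-sided p = 0.25). Cuzd1, of zymogen granules, read 12.73, 11.10 and 11.15 in KO HFD islets, against 10.58, 10.10, 10.47, 10.31 and 11.27 in KO CD islets (1.12, SE 0.35, adjusted p = 0.0148). Rbpjl, a subunit of the acinar transcription complex, read 11.58, 9.71 and 9.76 in KO HFD islets, against 9.31, 9.12, 9.15, 9.17 and 9.99 in KO CD islets (1.00, SE 0.31, adjusted p = 0.0151). In both genes KO CD islet 13 lay above KO HFD islets 17 and 18. Without islet 10 the differences were 0.58 (adjusted p = 0.130) and 0.39 (adjusted p = 0.0966), and those of the pancreatic elastase gene Cela3b (0.37, adjusted p = 0.0261) and of the lipase-related Pnliprp2 (0.56, adjusted p = 0.0366) were 0.25 (adjusted p = 0.162) and 0.33 (adjusted p = 0.235).

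With the mean of the acinar enzymes of each array as a covariate, 119 genes were higher and 5626 lower as deposited. The differences of Npy (−1.20, adjusted p = 0.00246), Stmn2 (−1.39, adjusted p = 0.00785) and Hhex (−1.03, adjusted p = 0.00423) were larger with it than without it. That of Spcs1 (−0.89, adjusted p = 0.00239) was slightly smaller. Sgk1 kept its call at a smaller difference, as given above. Of the 111 genes with values in the text 18 lost their call with the covariate. Cox6a2 (−0.84, adjusted p = 0.0849) and Sfrp5 (−0.83, adjusted p = 0.0504) no longer passed.

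Duct genes had 5 of 13 lower as deposited and 1 on all 3 scales, endothelial genes 9 of 20 and 0, stellate cell and matrix genes 2 of 25 and 0, leukocyte genes 3 of 23 and 0, and Schwann cell and nerve genes 3 of 16 and 0. None of the counts as deposited was above that of genes of like level. The median level of the endothelial list (9.49) lies in decile 7, where 71.8% of all genes were lower. Those of the other lists (8.14 to 8.42) lie in decile 5, where 48.9% were. Without KO HFD islet 17 the counts as deposited were 2 for the duct and 4 for the endothelium, and without KO HFD islet 18 the duct count was 3. Without KO HFD islet 10 the leukocyte and nerve counts were 1 each, without KO CD islet 12 the endothelial count was 5 and the nerve count 1, and without KO CD islet 13 the duct count was 3 and the stellate count 4. The stellate count was also 4 without WT CD islet 14. Of 9 adipocyte genes 1 was higher and 2 were lower as deposited and 4 higher and 1 lower after array centring, with a median of 0.09, 0.21 and 0.34 on the 3 scales. As deposited the 1 higher gene lost its call without KO HFD islet 10 or KO CD islet 12. The mean of the leukocyte list was 8.12 to 8.63 in KO HFD and 8.29 to 9.36 in KO CD islets, and that of the endothelial list was 9.30 to 9.39 and 9.42 to 9.59. The median of the leukocyte list was −0.31, −0.20 and −0.06 on the 3 scales. The part of these cells in the results above was not tested.

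**Figure D5:**
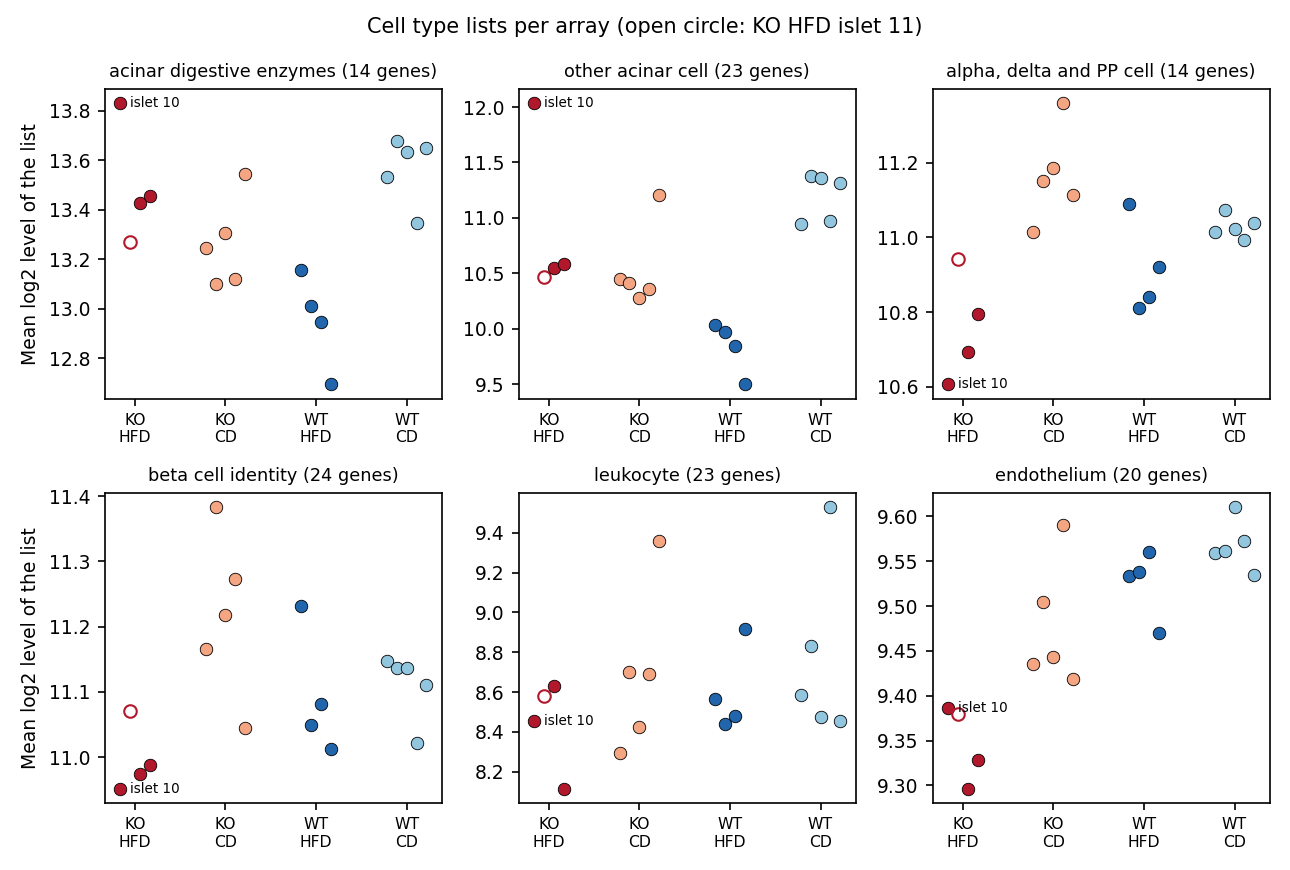
Mean log2 level, as deposited, of 6 cell type lists in each array of KO HFD, KO CD, WT HFD and WT CD islets. Points are arrays, islet 10 is named and the open circle is KO HFD islet 11. Islet 10 is the highest array in both acinar lists, with 12.04 for the other acinar genes, and the alpha, delta and PP cell list is lower in the 3 KO HFD arrays used than in every KO CD array.

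In WT islets the same diet changed few genes, and the difference between the genotypes was tested directly. Between WT HFD and WT CD islets 3 genes were higher and 25 lower. The diet effect was higher in KO than in WT islets for 216 genes (1.45%) and lower for 4633 (31.2%) as deposited, and for 320 and 1874 after array centring. In the acinar lists the WT arrays went the other way, with 8 of 14 enzymes and 11 of 23 other acinar genes lower in WT HFD than in WT CD islets, medians of −0.51 and −1.34. With the acinar enzyme mean as a covariate limma called 0 genes for the difference between the genotypes, and 3394 had an unadjusted p under 0.05. The median over all genes of the KO minus the WT diet effect was −0.22 with the covariate and −0.18 without it as deposited. A median over all genes does not show whether the effect in single genes was kept. Whether the acinar level has a part in the genotype difference of single genes was not tested. Within KO islets 5745 genes were still called with the covariate.

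Islet 11 was left out of the main fit, and its values are set here beside the same KO CD arrays. Its array differed from the other KO HFD arrays more than any other array from its group. Over all genes it lay below the KO CD mean in 65.0%, with a median difference of −0.08. In islet 11 Npy read 9.28 and lay just below the lowest KO CD array (9.30), Stmn2 read 7.66, below all KO CD arrays, and Sgk1 read 9.88, above all of them.

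The genes differed in how far islet 11 followed. The signal peptidase subunit Spcs1 (10.26) and Hhex (8.34) lay below the KO CD arrays, and Spcs3 (12.05), Ddost (12.73), Tmed3 (11.90), Cox6a2 (12.51) and Sfrp5 (11.43) lay among them. Sinhcaf (7.87), at 8.82 to 9.08 in the other KO HFD arrays, lay among the KO CD arrays. Sst (14.06) lay among the KO CD arrays. Fkbp5 (9.59) lay below all of them, on the other side from the KO HFD arrays that were used. With islet 11 in the fit, 231 genes were higher and 6106 lower as deposited, Npy was at −0.95 (adjusted p = 0.0012), and the calls of Aqp12 (0.74, adjusted p = 0.0507), Cuzd1 (0.84, adjusted p = 0.0593) and Fkbp5 (0.25, adjusted p = 0.245) ended.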

How the data were processed

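RNA of islets was hybridized to Affymetrix Mouse GeneChip Exon 1.0 ST arrays. The deposited gene-level values are log2 levels that the authors made by RMA in Affymetrix Expression Console 1.3, which quantile-normalizes and summarises probes. The exon-level files were not used here. Of 23332 transcript clusters 14996 carried 1 gene symbol, 1019 several and 7317 none in the platform annotation. For the 135 genes with more than 1 cluster the brightest was kept, which left 14860 genes. The 4 groups of genotype and diet were fitted together over 17 arrays (limma 3.58.1 in R 4.3.3, eBayes, Benjamini-Hochberg, threshold 0.05), and the difference of the diet effects was a contrast of the same fit. The fit was also run on simulated data with planted changes, and the outcome is not given here. Other steps used Python 3.11.15 with pandas 2.3.3, numpy 2.4.6, scipy 1.17.1 and matplotlib 3.10.9. P-values measure the spread between mice. Arrays give no counting depth, and their number limits the precision.

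Named were Gnaz, Npy, Stmn2 and Sgk1, the 12 largest rises and falls as defined in the report, up to 4 genes of smallest adjusted p per list, and a few hormone and receptor genes. Fkbp5, Tsc22d3, Nr3c1, Irx2, Mnx1, Nrsn1, Uchl1, Per3, Arntl, Herpud1 and Plin5 were added after their values were seen. The members and the 39 gene lists besides the olfactory receptors were chosen with earlier results of these data known. Alternatives were other scalings, fewer or more arrays, an acinar covariate, array weights, a filter on dim genes, a trend in the variance and all clusters. Probes of near-identical family members can cross-hybridize.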

Additional observations from a re-analysis of the deposited data

Results flagged for a closer look

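In 7 of 117 tests of genes and list means a KO CD array stood apart from the other 4, a share near the 1 in 20 of groups that would by chance. Genes were tested in KO CD islets, and the acinar list means in WT HFD and WT CD islets too. KO CD islet 12 was high in Sfrp5 (11.94), Spcs3 (12.17) and Tmed3 (12.04). KO CD islet 13 was high in Rbpjl (9.99) and in the mean of the other acinar genes (11.21). KO CD islet 1 was high in Lncpint (10.7), and KO CD islet 3 was low in Ins2 (13.8).

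For 76 of the 111 genes with values in the text the diet effect was called different between KO and WT islets as deposited (limma, adjusted over all genes). With the acinar enzyme mean as a covariate 0 of the 76 were called. The median over all genes of the log2 diet effect in KO islets minus that in WT islets was −0.22 with the covariate and −0.18 without it. The values below are this difference of diet effects as deposited, without the covariate. It was higher in KO islets for the acinar genes Aqp12 (2.42), Cuzd1 (2.95), Rbpjl (2.26), Pnliprp2 (1.7) and Cela3b (1.02), whose KO HFD arrays included islet 10 and which were lower in WT HFD than in WT CD islets. It was higher as well for Sinhcaf (1.32), Lncpint (1.17), Adam4 (1.05), Sgk1 (0.66), Klf15 (0.65), Fkbp5 (0.63), Usp2 (0.4) and Pim3 (0.33).

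Among the endocrine genes it was lower for Npy (−0.71), Pyy (−0.33), Dpp4 (−0.56), Sst (−0.45), Rbp4 (−0.59), Ghsr (−0.36), Irx1 (−0.45), Irx2 (−0.4), Pdx1 (−0.52), Kcnj11 (−0.57), Insm1 (−0.41) and Foxa2 (−0.26). In the neuronal and exocytosis lists it was lower for Nrsn1 (−1.03), Uchl1 (−0.8), Nefm (−0.74), Stmn3 (−0.68), Dcx (−0.57), Napb (−1.21), Exoc6 (−0.59) and Syt9 (−0.44). In the secretory and turnover lists it was lower for Spcs1 (−0.99), Spcs2 (−0.57), Spcs3 (−0.53), Ssr3 (−0.51), Fkbp2 (−0.71), Pdia4 (−0.41), Calr (−0.39), Atf4 (−0.46), Derl2 (−0.58), Alg5 (−0.67), Ddost (−0.46), Tmed3 (−0.75), Unc50 (−0.59) and Psmd7 (−0.56). In the mitochondrial and RNA lists it was lower for Ndufa1 (−1.17), Ndufb10 (−0.44), Mrpl49 (−0.63), Mrpl43 (−0.49), Polr2g (−0.57), Polr3b (−0.42), Cwc15 (−0.56) and Snrpb2 (−0.53). In the lipid, signaling and growth lists it was lower for Cyp51 (−0.91), Sqle (−0.66), Scd2 (−0.77), Fads1 (−0.38), Lpl (−0.54), Vnn1 (−0.6), Prkar1a (−0.35), Adcy3 (−0.38), Gnaz (−0.28), Sgk3 (−0.45) and Ccne2 (−0.94). Among the large falls and other genes it was lower for Sfrp5 (−1.16), Spock3 (−0.98), Swi5 (−0.96), Vwde (−0.95), AW551984 (−0.82), Ndst4 (−0.81), Klhl13 (−0.64), Tnfrsf11b (−1.25), Ndn (−0.78) and Ifih1 (−0.54).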

How the results depend on the processing

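The counts depended mostly on the scaling. Against 6847 genes called as deposited, array centring called 4055, quantile normalization 2423, cyclic loess 2322, centring on the genes tested 4400 (3265 higher, 1135 lower) and an adjusted p of 0.01 4561. Leaving out 1 array gave 5522 (KO HFD islet 18) to 7083 (KO CD islet 1). Against the 4055 after array centring, the 8 KO arrays alone gave 2211, the values as deposited 6847, quantile normalization 2423, cyclic loess 2322, centring on the olfactory receptor genes 7911 (75 higher, 7836 lower), the acinar enzyme covariate 2169 and an adjusted p of 0.01 1128. Leaving out 1 array gave 2082 to 4493, with 2571 without KO HFD islet 10, 2082 without 17, 2379 without 18, 2668 without KO CD islet 2 and 2371 without 12. Against 4849 genes with a diet effect that differed between KO and WT islets, array centring gave 2194, quantile normalization 1094, cyclic loess 1028, centring on the genes tested 1189, the acinar covariate 0 and an adjusted p of 0.01 1576. Leaving out 1 array gave 3547 (WT HFD islet 7) to 5403 (KO CD islet 1).

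Centring on the genes tested, chosen after seeing the data, reversed the sign of Ins2 (0.20), Glp1r (0.18), Iapp (0.17), Ppy (0.0767), Gcg (0.0645) and Clock (0.0171), and cyclic loess that of Clock (0.0048). Of the 111 genes with values in the text, 17 lost their call with quantile normalization, 18 with the acinar covariate, 11 without KO HFD islet 10 and 9 without KO CD islet 12. Npy, Stmn2 and Sgk1 kept their calls under all alternatives run. The cause of a lost call was not tested. No paired analysis was possible because each islet number belongs to 1 mouse and so to 1 group. A term that set islets 12 to 18 apart from those of lower number gave 6885 calls. The precision is limited by 3 KO HFD arrays.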

Other observations

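Circadian clock genes were looked at after the rise of Per1 was seen, and their list was chosen after seeing the values. Of 16 measured, 4 were higher on all 3 scales, Per1, Noct, Usp2 and Per3, and 1 was lower as deposited, Clock, with a list median of 0.03 as deposited, 0.15 after array centring and 0.28 after centring on the genes tested. Noct, a rhythmic deadenylase-like protein, read 10.25, 10.71 and 10.48 in KO HFD islets, against 10.06, 9.89, 10.04, 9.84 and 10.11 in KO CD islets (0.50, SE 0.13, adjusted p = 0.0048 by limma). The ubiquitin protease Usp2 was higher by 0.35 (adjusted p = 0.00372) and the clock repressor Per3 by 0.36 (adjusted p = 0.0371), while Arntl, the activator of the clock, read 8.46, 7.22 and 7.87 in KO HFD islets, against 8.34, 8.53, 8.94, 8.51 and 8.29 in KO CD islets (−0.68, adjusted p = 0.0614). The time of day of collection was not analysed here.

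Of 16 imprinted growth genes 5 were lower as deposited and 3 on all 3 scales, Sgce (−0.67), Ndn (−0.62) and Grb10 (−0.54), with a list median of −0.14, −0.02 and 0.11. The median level of the list (9.15) lies in decile 7, where 71.8% of all genes were lower as deposited. On all 3 scales 7.64% of all genes were lower. Of 19 interferon-response genes 7 were lower as deposited and 1 on all 3 scales (median −0.29, −0.17 and −0.04), the viral RNA sensor Ifih1 being at −0.59. In decile 5, in which the median level of this list (8.31) lies, 48.9% of all genes were lower as deposited. Without KO HFD islet 18, 2 interferon-response genes were lower as deposited. Of 712 olfactory receptor genes 29 were higher and 8 lower as deposited, and 29 higher and 0 lower on all 3 scales, with a median of 0.03, 0.15 and 0.28. Their median level (5.15) lies in the dimmest decile, where 43 of 1486 genes were higher and 41 lower as deposited. Over all genes 1.45% were higher on all 3 scales. The count of olfactory receptor genes higher as deposited was 15 without KO CD islet 12 and 16 without KO HFD islet 18. It was 17 without KO CD islet 2 and 18 without KO HFD islet 17, and 5 were lower without KO CD islet 2. Of 15 genes of serotonin synthesis and the pregnancy response of islets 5 were lower as deposited, and 3 without KO HFD islet 17. The median level of the list (8.70) lies in decile 6, where 63.0% of all genes were lower as deposited. The decoy receptor gene Tnfrsf11b of that list was at −0.90 with overlapping arrays. These were values beside the comparisons of the report, and their causes were not tested.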
